A study of Mus musculus with 2 samples.

Results

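The 35 genes described here encode the axoneme of the motile cilium, the proteins that put its dynein arms together, and 3 transcription factors of cilium genes. They are a list of gene symbols, drawn up with earlier results of these data known, and all 35 were found among the 32287 genes of the deposited matrices. They comprise 5 radial spoke genes (Rsph1, Rsph4a, Rsph9, Rsph3a and Cfap206), 3 genes of the axonemal ruler and the nexin link (Ccdc39, Ccdc40 and Drc1), 5 of the outer dynein arm (Dnah5, Dnah9, Dnah11, Efcab1 and Cfap70), 3 of the inner arm and its tether (Dnah7a, Cfap43 and Cfap44) and the light chain gene Dynlrb2. A further 4 serve dynein assembly (Lrrc6, Zmynd10, Dnaaf1 and Dnaaf3), 5 the central pair (Spef2, Spag6l, Spag16, Hydin and Cfap69) and 4 the inside of the doublet microtubules (Cfap52, Mns1, Tekt1 and Tekt2), and 2 are enzymes of the cilium (Mak and Ak7). The transcription factors are Foxj1, Rfx2 and Rfx3.

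In a motile cilium, dynein arms on the doublet microtubules slide one doublet against its neighbour, and the radial spokes and the central pair time that sliding so that the cilium beats. Dynein arms are built in the cytoplasm by assembly factors before they enter the cilium. Multiciliated cells of the airway, oviduct and brain ventricles carry these structures in bundles, and FOXJ1 and the RFX factors switch on their genes there, downstream of GEMC1 and MCIDAS. Endocrine cells are usually described with a single primary cilium, which lacks arms, spokes and a central pair.

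Single cells of mouse parathyroid glands were measured with a droplet kit that reads the 3' end of transcripts. The glands had grown from Pth-tdTomato mouse embryonic stem cells in Gcm2-/- hosts on a BDF1B6 background, which do not form the gland themselves. Replicate 1 was made from 3 mice of 9 to 12 weeks, in which 50 to 70% of blood cells were of stem cell origin, and replicate 2 from 5 mice of 6 to 13 weeks, in which that share was 60 to 70%. Glands of both sexes were combined, so that animals cannot be told apart within a library, and every gland came from a complemented Gcm2-/- host. Glands of another origin are not analysed here, and the comparison is between cell classes of the same 2 libraries. With this chimerism, cells of the other types can be of stem cell or of Gcm2-/- host origin, and the 2 origins were not separated here. Differences between parathyroid barcodes and the other types can therefore not be fully told apart from differences in cell origin.

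Parathyroid barcodes were those with at least 5% of their unique molecular identifiers (UMIs) from Pth, the parathyroid hormone gene, and other types were named by markers among barcodes with Pth under 1%. After filtering, 660 parathyroid barcodes with 30293653 UMIs were kept in replicate 1 and 2237 with 71488244 UMIs in replicate 2. The 5 other types with at least 20 cells in each library were fibroblast-like (230 and 453 cells), endothelial-like (106 and 270), macrophage-like (55 and 132), dendritic cell-like (52 and 49) and T cell-like (36 and 51). The dendritic cell-like class is mixed. At a clustering resolution of 2 it held 42 and 24 cells, and 10 and 25 cells formed a cluster named B cell-like, with Igkc and Mki67 among its leading genes. The median parathyroid barcode held 37729.5 UMIs in replicate 1 and 30583 in replicate 2, against 21694 and 19680 in fibroblast-like cells and 7589 in endothelial-like cells of replicate 2. The parathyroid barcodes matched their label: Gcm2 had 157 and 159 CPM (UMIs of a gene scaled to a class total of 1000000) and Casr, the calcium-sensing receptor, 349 and 314, against 2.42 and 1.68 CPM of Gcm2 and 2.22 and 2.25 CPM of Casr in fibroblast-like cells. The 2 libraries shared 3 barcode sequences.

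Most of the structural genes were present in parathyroid barcodes and scarce in the 5 other types compared. Summed over the 32 members other than the transcription factors, the level was 604 CPM in replicate 1 and 621 in replicate 2 of the parathyroid class, against 55.6 and 47.4 in fibroblast-like cells, 49.4 and 40.0 in endothelial-like, 41.9 and 32.4 in macrophage-like, 45.9 and 48.1 in dendritic cell-like and 62.5 and 50.6 in T cell-like cells. Both parathyroid sums lay above all 10 sums of the other types for 26 of the 35 members, where 14.9% of 23004 eligible genes with a UMI did so. Both lay below all 10 sums for 1 member, Cfap43, where 4.59% of the eligible genes did. Sums overlapped for the other 8, which were Dnah5, Dnah11, Cfap44, Zmynd10, Tekt2, Ak7, Rfx2 and Rfx3. In the T cell-like sums a floor of 3 counts is 6.94 and 6.60 CPM. Some of the 26 members lie under it, such as Dnaaf1 (1.03 CPM on average in parathyroid barcodes), Drc1 (1.58), Cfap206 (1.88) and Tekt1 (2.21). None of these had a UMI in T cell-like cells. Their bounds there are at least 0.305-fold, 0.427-fold, 0.531-fold and 0.679-fold, which do not show a higher level than in that type.

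**Figure D1:**
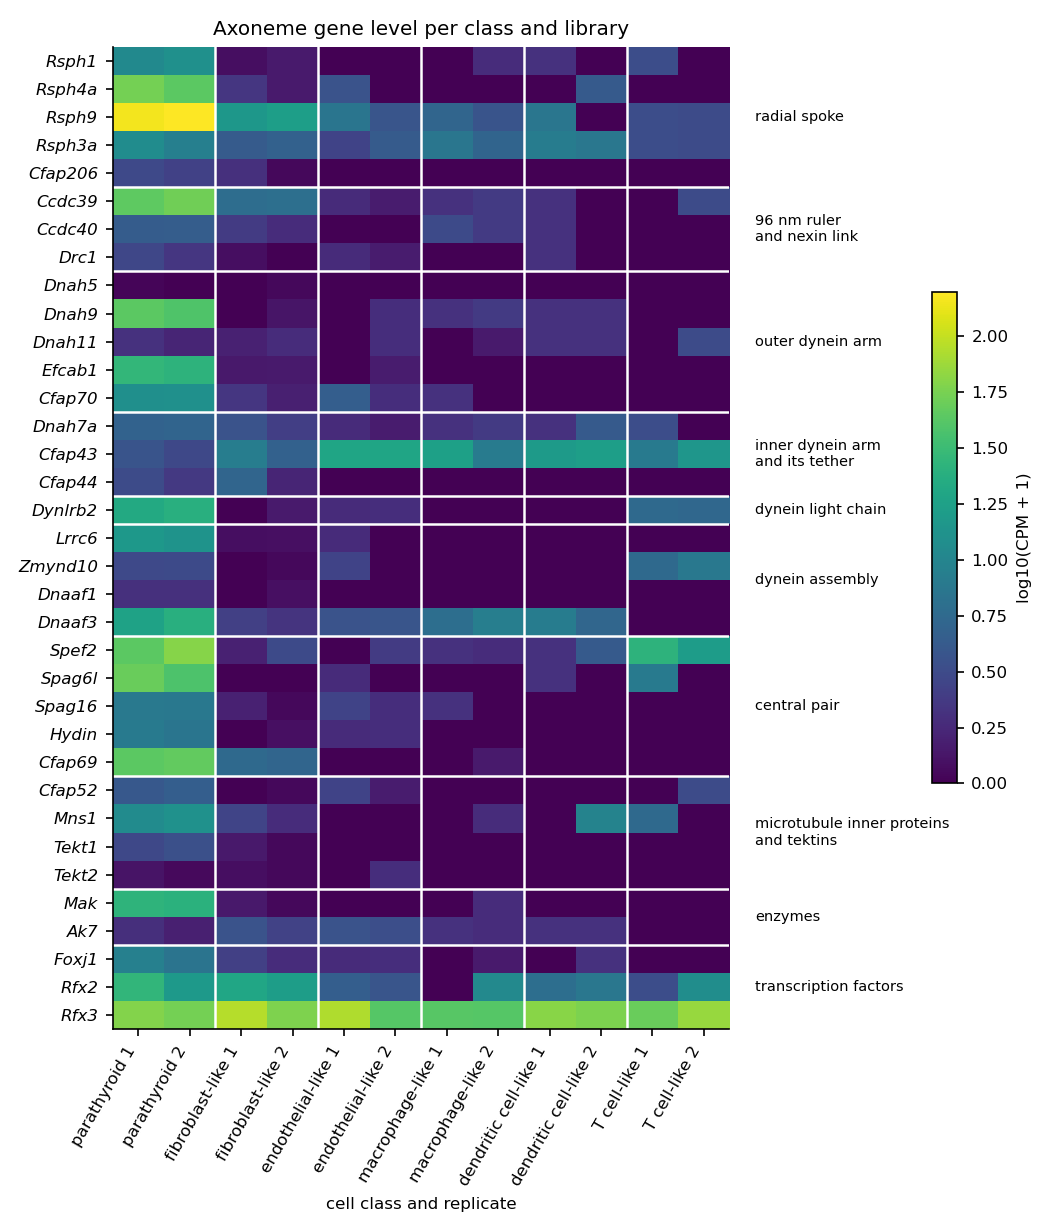
Level of each of the 35 genes as log10(CPM + 1) in 6 cell classes and 2 replicates, with the parathyroid columns at the left and genes grouped by structure. The parathyroid columns are brighter for 26 genes, Cfap43 is darker there than in every other column, and Rfx3 is alike across the columns.

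The test was edgeR's quasi-likelihood test on sums of raw counts per class and library, with the library as a block, of the parathyroid class against the unweighted mean of the 5 other types. Of the 35 members, 21 passed the filter on low counts. A type without any UMI was found for 14 of these 21. Members could pass through the parathyroid class alone, where most are high, whether or not a type was empty. The 21 therefore do not stand for the 35. Among those 21, 19 were called higher in parathyroid barcodes at an adjusted p under 0.05 and 1, Cfap43, was called lower, beside 38.4% called higher and 19.7% called lower of 11720 eligible genes. Their median log2 fold change was 5.93, against 0.24 over eligible genes. With genes of an empty type set to the value that 3 counts over both libraries of that type would give, the medians were 3.68 and 0.15. With another scaling, the RLE method, the median of eligible genes was 0.11, and the log2 fold changes below stand relative to these medians.
Without the filter, all 35 were tested, 29 were called higher and 1 lower, beside 26.9% and 8.85% of 23004 eligible genes, and 10 of the 14 members that had not passed it were among the 29. Adjusted p-values of the unfiltered fit are on another scale. Rsph9 had 1.57e-140 there and 2.80e-09 with the filter (edgeR), at log2 fold changes of 5.38 and 5.25. The p-values given below for members tested without the filter are therefore not to be set against the filtered ones.
With 1 type at a time left out of the mean, a setting chosen after the data were seen, the number of members tested could change too. Called higher were 21 of 23 tested without dendritic cell-like cells (background 36.9%, and 20.1% lower) and 18 of 20 without endothelial-like (37.5% and 20.4%). They were 16 of 18 without fibroblast-like (36.8% and 22.4%) and 19 of 21 without macrophage-like cells (37.6% and 18.8%). Without T cell-like cells 20 were called higher (38.5% and 23.8%). In each setting 1 was called lower, and those of the 21 members above that were tested kept their call.
Set against single types, the 21 members gave 18 called higher against fibroblast-like cells (background 30.0%), 19 against endothelial-like (29.2%), 18 against macrophage-like (31.6%), 17 against dendritic cell-like (33.5%) and 17 against T cell-like cells (29.1%). Of the 21, 16 were called higher against each of the 5 types, and the share of eligible genes that were so was not counted. Cfap43 was the 1 member called lower in each of these comparisons, where 29.0%, 24.6%, 26.3%, 22.7% and 16.3% of eligible genes were called lower, in the same order of types.

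Radial spokes are the T-shaped stalks that reach from each doublet to the central pair, and Rsph1, Rsph4a and Rsph9 form their heads. Rsph9 (chr17:46122035-46144216, minus strand, build GRCm38) had 141 CPM in replicate 1 and 156 in replicate 2 of the parathyroid barcodes, against 13.5 and 16.1 in fibroblast-like cells and 0 to 6.25 in the other types. It gave at least 1 UMI in 96.2% and 97.6% of parathyroid cells, against 23.9% and 25.8% of fibroblast-like cells, and no sum of another type exceeded 16.1 CPM. The log2 fold change was 5.25 (SE 0.24, adjusted p = 2.80e-09, edgeR) against the mean of the other types and 3.40 (SE 0.28, adjusted p = 3.65e-07) against fibroblast-like cells. Rsph4a (chr10:33905111-33916021) had 53.8 and 42.9 CPM in parathyroid barcodes, against 1.21 and 0.449 in fibroblast-like cells and at most 3.21 elsewhere. It had no UMI in T cell-like or macrophage-like cells, which puts it at least 13.6-fold and at least 48.9-fold higher in parathyroid barcodes, on a floor of 3 counts over both libraries.
Rsph1 had 10.0 and 11.6 CPM in parathyroid barcodes, against 0.202 and 0.449 in fibroblast-like cells. Rsph3a, a stalk gene, had 10.6 and 7.90 CPM in parathyroid barcodes against 3.23 and 3.82 in fibroblast-like and 7.30 and 6.42 in dendritic cell-like cells. Its log2 fold change against the mean was 1.40 (SE 0.27, adjusted p = 7.17e-04, edgeR), and against dendritic cell-like cells it was 0.41 (SE 0.44, adjusted p = 0.451). Rsph3a has a near-identical neighbour on the same chromosome, Rsph3b (19.0 and 16.0 CPM in parathyroid barcodes, against 5.05 and 5.62 in fibroblast-like cells), and the split of reads between them is uncertain. Cfap206, a spoke base gene known from ciliates, had 2.08 and 1.68 CPM in parathyroid barcodes, against 1.01 and 0.112 in fibroblast-like cells and no UMI in the other 4 types.

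The Ccdc39 and Ccdc40 proteins form the ruler that spaces spokes and arms along the doublet, and Drc1 belongs to the nexin-dynein regulatory complex that ties neighbouring doublets. Ccdc39 (chr3:33812362-33844310) had 44.1 and 51.3 CPM in parathyroid barcodes, against 5.05 and 5.39 in fibroblast-like cells and 0 to 2.20 elsewhere. It was detected in 73.2% and 74.3% of parathyroid cells, against 9.13% and 9.71% of fibroblast-like cells. Its log2 fold change was 5.44 against the mean (SE 0.25, adjusted p = 3.16e-09, edgeR) and 3.28 against fibroblast-like cells (SE 0.24, adjusted p = 1.49e-07). Its partner Ccdc40 had 3.33 and 3.48 CPM in parathyroid barcodes, against 1.41 and 0.899 in fibroblast-like cells, and Drc1 had 1.91 and 1.25, against 0.202 and 0 there. Neither passed the filter, and without it both were called higher.

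The outer arm holds the heavy chains Dnah5, Dnah9 and Dnah11, and its members went apart. Dnah9 (chr11:65831282-66168551) had 42.6 and 37.8 CPM in parathyroid barcodes, against 0 and 0.337 in fibroblast-like cells and at most 1.35 elsewhere, and gave a UMI in 65.6% and 54.8% of parathyroid cells. Dnah5 had 2 UMIs in replicate 1 and 1 in replicate 2 of the parathyroid barcodes, which is 0.0660 and 0.0140 CPM, against 0 and 1 UMI in fibroblast-like cells. In human airway cilia DNAH5 is the heavy chain found along the whole axoneme. Here Dnah5 did not exceed 0.112 CPM in any of the 6 classes. Dnah11 had 1.06 and 0.685 CPM in parathyroid barcodes, against 0.606 and 0.899 in fibroblast-like cells and 0 to 2.20 elsewhere, so that the classes overlapped. Without the filter neither Dnah5 (adjusted p = 0.972) nor Dnah11 (adjusted p = 0.810, edgeR) was called. Efcab1, a calcium-binding protein of the arm's docking complex, had 27.2 and 25.4 CPM in parathyroid barcodes, against 0.404 and 0.449 in fibroblast-like cells, with 1 further UMI in the other types together. Cfap70, an arm-associated protein, had 11.4 and 11.7 CPM in parathyroid barcodes, against 1.21 and 0.562 in fibroblast-like and 3.52 and 0.942 in endothelial-like cells.

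Inner arm genes differed in direction, with Dnah7a called higher without the filter (adjusted p = 4.32e-04, edgeR) and Cfap43 called lower with it. Dnah7a, an inner arm heavy chain, had 3.93 and 4.10 CPM in parathyroid barcodes, against 2.63 and 1.57 in fibroblast-like cells. Its close copies Dnah7b and Dnah7c had 89.2 and 79.9 CPM and 26.3 and 28.8 CPM in parathyroid barcodes, against 30.7 and 15.6 CPM and 3.84 and 3.71 CPM in fibroblast-like cells, and reads could be split wrongly among the 3. Cfap43 and Cfap44 tether an inner arm to the doublet. Cfap43 (chr19:47736857-47919287) had 2.74 and 2.00 CPM in parathyroid barcodes, against 7.48 and 3.82 in fibroblast-like and 18.5 and 18.4 in endothelial-like cells. It was lower in parathyroid barcodes than in each other type, with a log2 fold change of -2.12 against the mean (SE 0.30, adjusted p = 5.81e-05, edgeR). The annotated body of Cfap43 overlaps Itprip on the same strand and Gsto1 and Gsto2 on the other, and the sources used here do not say how reads in the overlap were assigned. Cfap44 had 2.18 and 1.31 CPM in parathyroid barcodes and 4.24 and 0.674 in fibroblast-like cells, which overlap, with no UMI in the other 4 types, and the call of higher without the filter (adjusted p = 2.09e-04, edgeR) rests on those 4. Dynlrb2, a dynein light chain of the roadblock type, had 20.7 and 23.3 CPM in parathyroid barcodes, against 0 and 0.449 in fibroblast-like and 4.63 and 4.40 in T cell-like cells.

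Dynein assembly genes were also found. Lrrc6 had 13.7 and 12.4 CPM in parathyroid barcodes, against 0.202 and 0.225 in fibroblast-like cells, and Dnaaf3 had 17.4 and 23.1 CPM, against 1.62 and 1.12 there and 5.23 and 7.65 in macrophage-like cells. Both were called higher in parathyroid barcodes, with log2 fold changes of 8.35 (SE 0.65, adjusted p = 3.12e-06) and 4.24 (SE 0.35, adjusted p = 9.98e-07, edgeR). Both folds depend on the prior count, since Lrrc6 had 3 types without a UMI and Dnaaf3 had none in T cell-like cells. Against the other 4 types, Dnaaf3 had log2 fold changes of 1.51 to 4.03. Zmynd10 had 2.05 and 2.08 CPM in parathyroid barcodes, below its 4.63 and 6.60 CPM in T cell-like cells, which rest on 2 and 3 UMIs. It was called higher against the mean without the filter (adjusted p = 1.55e-04, edgeR), with no UMI in dendritic cell-like or macrophage-like cells. Dnaaf1 had 1.02 and 1.04 CPM in parathyroid barcodes, against 0 and 0.225 in fibroblast-like cells. Dnaaf3 overlaps Tnni3 on the same strand.

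The central pair is the core that most motile cilia have and primary cilia lack, and all 5 of its members were called higher in parathyroid barcodes, beside 38.4% of eligible genes. All but Spef2 had 2 or 3 types without a UMI, and these 5 too could pass the filter through the parathyroid class alone. Spef2 (chr15:9578193-9748868), a scaffold of the central apparatus, had 42.5 and 61.2 CPM in parathyroid barcodes, against 0.606 and 2.13 in fibroblast-like and 25.4 and 15.4 in T cell-like cells. Its log2 fold change was 4.69 against the mean (SE 0.25, adjusted p = 1.27e-08, edgeR) and 1.72 against T cell-like cells (SE 0.40, adjusted p = 0.00361). Cfap69 (chr5:5579278-5664239) had 43.0 and 45.5 CPM in parathyroid barcodes, against 4.65 and 4.16 in fibroblast-like cells, and gave a UMI in 70.9% and 69.0% of parathyroid cells. Spag6l had 48.8 and 37.4 CPM in parathyroid barcodes and no UMI in fibroblast-like cells, which is at least 188-fold higher on the floor of 3 counts over both libraries. A close copy of it, Spag6, had 0.363 and 0.126 CPM in parathyroid barcodes, against 0 and 0.449 in fibroblast-like cells.
Spag16 had 6.77 and 6.57 CPM in parathyroid barcodes, against 0.606 and 0.112 in fibroblast-like cells. Hydin, the giant central pair protein whose loss causes hydrocephalus in mice, had 6.97 and 6.15 CPM, against 0 and 0.225 there. These 2 genes gave a UMI in 14.2% and 11.4% and in 17.6% and 13.5% of parathyroid cells.

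Inside the doublets, Mns1 had 10.6 and 11.9 CPM in parathyroid barcodes, against 1.82 and 0.899 in fibroblast-like and 0 and 8.55 in dendritic cell-like cells. Cfap52 had 3.00 and 3.50 CPM in parathyroid barcodes, against 0 and 0.112 in fibroblast-like cells. Of the tektins, filament proteins of the doublet, Tekt1 had 1.98 and 2.43 CPM in parathyroid barcodes, against 0.404 and 0.112 in fibroblast-like cells, and Tekt2 had 0.297 and 0.140, against 0.202 and 0.112 there. Tekt2 rested on 9 and 10 UMIs in parathyroid barcodes, and 1 and 1 in fibroblast-like cells, and was not called without the filter (adjusted p = 0.662, edgeR). The kinase gene Mak, which limits cilium length, had 26.0 and 24.3 CPM in parathyroid barcodes, against 0.404 and 0.112 in fibroblast-like cells. Ak7, an adenylate kinase of the axoneme, had 0.990 and 0.574 CPM in parathyroid barcodes, against 2.63 and 1.68 in fibroblast-like and 2.64 and 2.36 in endothelial-like cells, and was not called (adjusted p = 0.993).

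**Figure D2:**
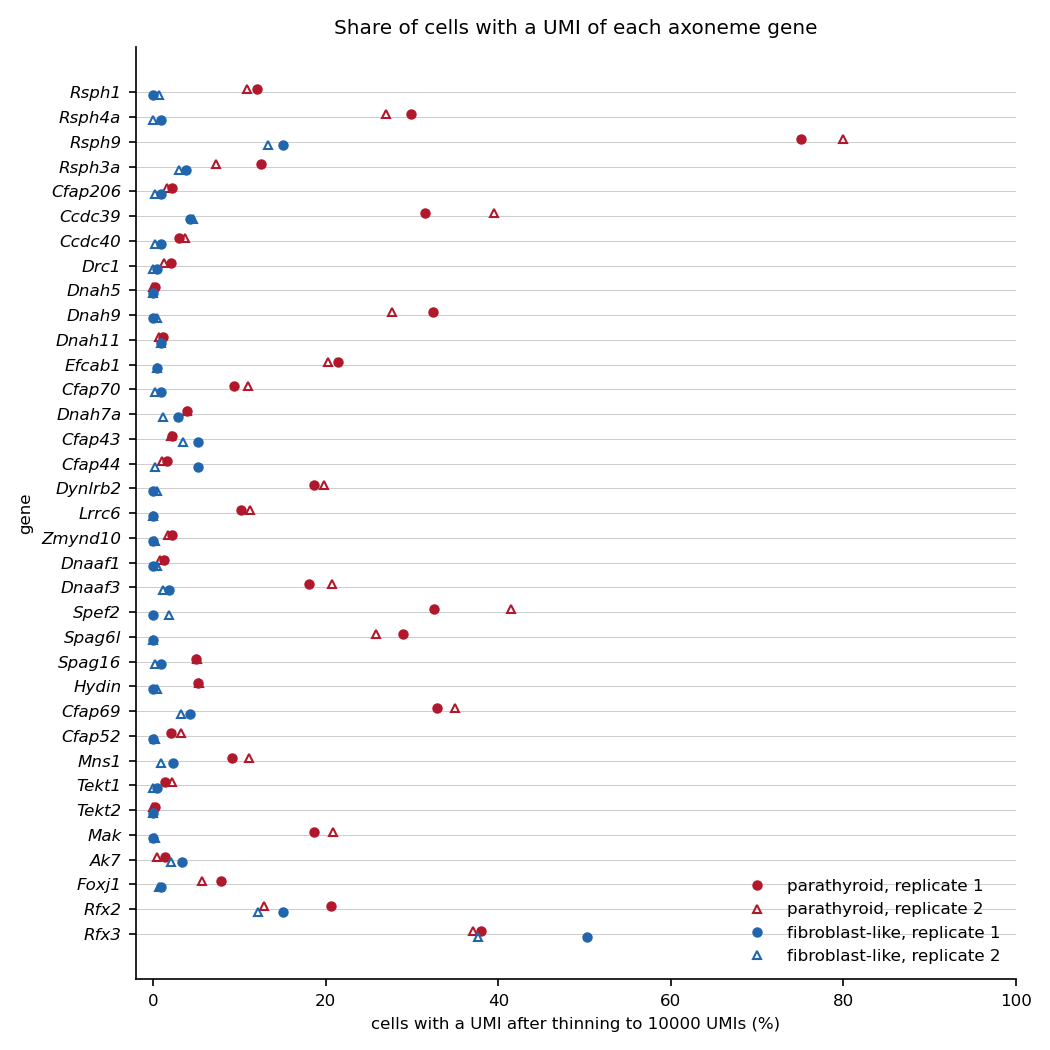
Share of parathyroid cells (red) and fibroblast-like cells (blue) with a UMI of each gene after every cell was thinned to 10000 UMIs, with filled circles for replicate 1 and open triangles for replicate 2. Rsph9 is found in 75.1% and 79.9% of parathyroid cells, Dnah5 in 0.156% and 0, and Rfx3 in 38.0% and 37.1%, against 50.2% and 37.7% of fibroblast-like cells.

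Of the 3 transcription factors, Foxj1 and Rfx2 were called higher in parathyroid barcodes, Foxj1 only without the filter, and Rfx3 was not called. Foxj1 (chr11:116330704-116335399) had 8.12 CPM from 246 UMIs in replicate 1 and 5.93 CPM from 424 UMIs in replicate 2 of the parathyroid barcodes, against 1.62 and 0.899 in fibroblast-like cells and 0 to 1.07 elsewhere. It was found in 27.4% and 15.8% of parathyroid cells, against 3.48% and 1.32% of fibroblast-like cells, so it was low but not absent. It did not pass the filter, and without it the log2 fold change was 4.71 (SE 0.62, adjusted p = 2.46e-13, edgeR). That p-value is of the unfiltered fit and cannot be compared with those of members that passed. Rfx2 had 26.7 and 14.5 CPM in parathyroid barcodes, against 18.8 and 15.6 in fibroblast-like cells and 0 to 11.0 elsewhere. It was called higher against the mean (log2 fold change 1.68, SE 0.37, adjusted p = 0.00156), and against fibroblast-like cells the log2 difference was 0.31 (SE 0.38, adjusted p = 0.505). Rfx3 had 59.8 and 54.0 CPM in parathyroid barcodes, against 89.1 and 58.6 in fibroblast-like cells and 40.0 to 85.5 elsewhere. Its log2 difference from the mean was 0.11 (SE 0.19, adjusted p = 0.711), and its sign turned under other scalings, to -0.031 with RLE and -0.036 with DESeq2.

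Mcidas and Gmnc, which start the multiciliated programme, and Trp73 were near 0 in parathyroid barcodes. Mcidas had 1 and 2 UMIs in the parathyroid barcodes of replicates 1 and 2, against 9 and 2 in fibroblast-like cells, Gmnc had 1 and 1, against 0 and 7, and Trp73 had 0 and 3, against 1 and 1. Ccno, a cyclin-like gene of centriole amplification, had 0.132 and 0.154 CPM in parathyroid barcodes, against 6.26 and 5.73 in fibroblast-like and 10.6 and 9.42 in endothelial-like cells, and was called lower (adjusted p = 9.88e-04, edgeR). Myb had 0.726 and 0.574 CPM in parathyroid barcodes, against 7.30 and 10.7 in dendritic cell-like cells (adjusted p = 0.105 against the mean). Deup1, which builds the deuterosome from which extra centrioles arise, had a higher level, with 30.8 and 22.2 CPM in parathyroid barcodes, against 22.0 and 30.1 in endothelial-like cells and 0 to 4.40 in the other types. It was called higher against the mean (adjusted p = 6.62e-07), while the parathyroid and endothelial-like sums overlapped.
Of the 14 genes of the list of multiciliogenesis and cilium transcription factors, 8 passed the filter, 3 were called higher (Deup1, E2f5 and Rfx7) and 1 lower (Ccno), shares close to the 38.4% and 19.7% of eligible genes. E2f5 averaged 27.0 ± 1.16 CPM in parathyroid barcodes and 16.0 ± 1.35 in the other types (SD, n = 2 libraries), and Rfx7 averaged 88.7 ± 1.70 CPM in parathyroid barcodes and 77.3 ± 5.10 in the other types. In parathyroid barcodes E2f4, Rfx1 and Rfx5 averaged 19.2 ± 0.851, 5.38 ± 0.520 and 9.80 ± 0.758 CPM, against 23.4 ± 1.04, 7.93 ± 0.878 and 7.98 ± 1.84 CPM in the other types, and none of these 3 was called. Rfx4 had 0.0660 and 1.11 CPM in parathyroid barcodes, against 0.404 and 0.225 in fibroblast-like cells.

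**Figure D3:**
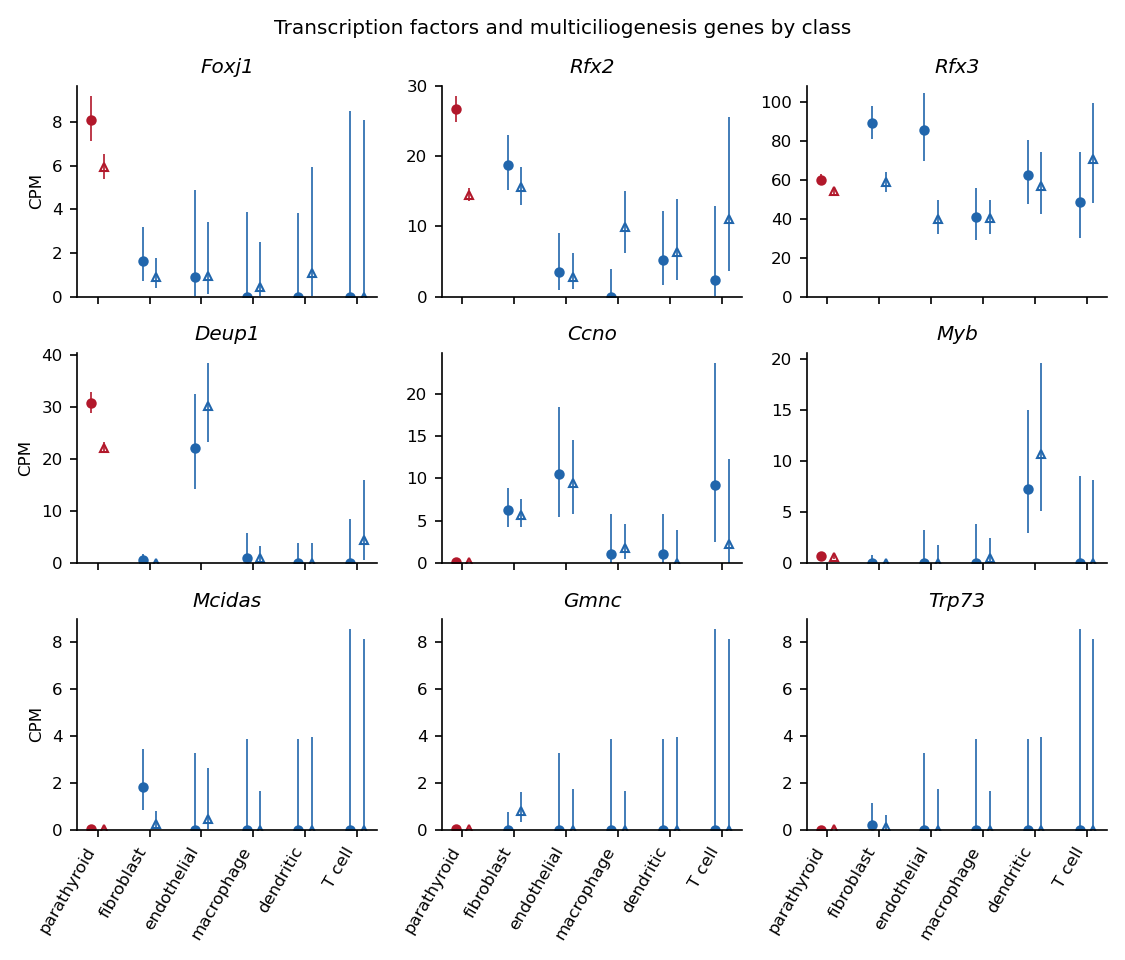
CPM of 9 transcription factors and multiciliogenesis genes in parathyroid barcodes (red) and 5 other types (blue), with a filled circle for replicate 1, an open triangle for replicate 2 and exact 95% Poisson intervals of the counts as bars. Foxj1 is above the other types in both replicates, Rfx3 is not, and Mcidas, Gmnc and Trp73 lie at or near 0 in parathyroid barcodes.

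RFX factors bind the X-box, a pair of inverted arms, and forkhead factors such as FOXJ1 bind a shorter motif. The 250 bases before the start of 29 of the 35 members were read from RefSeq promoters of build GRCm38.p6 and searched on both strands for 4 motifs, of which the 3 X-box forms share their first letters and so overlap. The arm GTTGCC was found in 10 of the 29 members, beside 11.8% of 27025 genes. A relaxed X-box, which is this arm followed by any 3 bases and then by GNAAC, was chosen after other spacings had been looked at and was found in 3 members (Cfap44, Spag16 and Hydin), beside 0.407% of genes. The full palindromic X-box, in which the arm is followed by ATGGNAAC, was found in 0 members, beside 0.0740% of genes. The forkhead motif GTAAACA was found in 2, Cfap43 and Ak7, beside 3.54% of genes. The 3 promoters with the relaxed X-box are printed below with that of Dynlrb2, which holds 1 match to GTTGCC and none to the longer X-box forms, and that of Rsph9, which holds none of the 4 motifs. Capitals mark the motif matches, and a match is a string of letters and not a measured binding site.
Hydin, chr8:110266727-110266976, plus strand: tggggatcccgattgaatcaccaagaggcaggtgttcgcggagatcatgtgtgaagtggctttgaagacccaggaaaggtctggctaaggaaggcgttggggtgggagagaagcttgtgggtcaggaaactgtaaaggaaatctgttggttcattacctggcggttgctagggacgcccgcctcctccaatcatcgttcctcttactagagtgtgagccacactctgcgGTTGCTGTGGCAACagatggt
Spag16, chr1:69826720-69826969, plus strand: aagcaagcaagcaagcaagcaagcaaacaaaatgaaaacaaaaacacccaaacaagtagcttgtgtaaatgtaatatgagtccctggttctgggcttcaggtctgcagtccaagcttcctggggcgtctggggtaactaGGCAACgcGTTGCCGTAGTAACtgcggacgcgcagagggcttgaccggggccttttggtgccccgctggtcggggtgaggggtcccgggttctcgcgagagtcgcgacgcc
Cfap44, chr16:44394549-44394798, plus strand: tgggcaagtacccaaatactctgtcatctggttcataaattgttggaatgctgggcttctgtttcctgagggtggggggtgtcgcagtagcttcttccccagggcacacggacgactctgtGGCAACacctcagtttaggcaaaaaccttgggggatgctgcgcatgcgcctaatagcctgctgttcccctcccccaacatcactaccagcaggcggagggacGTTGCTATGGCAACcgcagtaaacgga
Dynlrb2, chr8:116504765-116505014, plus strand: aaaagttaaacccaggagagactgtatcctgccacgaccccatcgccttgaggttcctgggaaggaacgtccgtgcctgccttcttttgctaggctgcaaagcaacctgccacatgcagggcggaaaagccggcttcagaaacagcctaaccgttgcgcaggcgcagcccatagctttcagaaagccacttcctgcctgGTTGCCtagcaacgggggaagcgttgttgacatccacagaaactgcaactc
Rsph9, chr17:46144201-46144450, minus strand: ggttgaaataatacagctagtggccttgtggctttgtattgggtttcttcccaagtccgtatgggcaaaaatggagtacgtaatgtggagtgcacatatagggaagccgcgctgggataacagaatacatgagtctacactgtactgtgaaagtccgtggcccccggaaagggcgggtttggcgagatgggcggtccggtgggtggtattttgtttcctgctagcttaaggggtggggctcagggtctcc

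The structural genes were spread over the parathyroid cells and not gathered in a few of them. With each cell thinned to 10000 UMIs, which left 639 and 2177 parathyroid cells and left out 21 and 60 shallower ones, a parathyroid cell held UMIs of 4.28 of the 32 structural members on average in replicate 1 and of 4.42 in replicate 2 (SD over cells 1.91 and 1.76), with a median of 4 in both. Fibroblast-like cells held 0.549 and 0.407, with a median of 0. Only 6 of 639 and 10 of 2177 parathyroid cells held none, and the highest number in a cell was 11. At least 5 members were seen in 42.1% (Wilson 95% interval 38.3 to 46.0%) and 46.5% (44.4 to 48.6%) of parathyroid cells, and in 0 of 213 and 0 of 430 fibroblast-like cells, which allows shares of up to 1.41% and 0.698% on a floor of 3 cells of the total (Wilson upper limits 1.77% and 0.885%). The 10% of parathyroid cells with most structural UMIs held 19.8% and 18.9% of them, and the top 1% held 2.94% and 2.63%. Without thinning, parathyroid cells held UMIs of 10.1 members on average in replicate 1 and 8.92 in replicate 2.

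**Figure D4:**
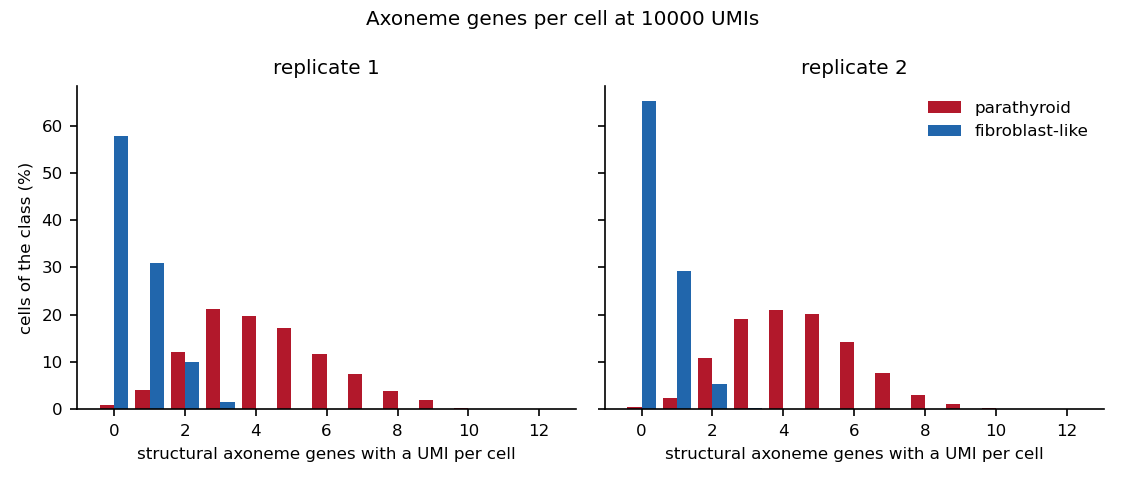
Percent of parathyroid cells (red) and fibroblast-like cells (blue) by the number of the 32 structural genes with a UMI, after thinning to 10000 UMIs, for each replicate. Parathyroid cells centre on 4 genes, and most fibroblast-like cells have 0 or 1.

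Pairs of members met in the same parathyroid cell about as often as their separate shares gave. For the 17 members found in at least 10% of thinned parathyroid cells, 136 pairs were formed, and the share of cells with both was set against the product of both shares. The median ratio was 1.03 in replicate 1 and 1.01 in replicate 2, with ranges of 0.509 to 1.59 and 0.683 to 1.44. Rsph4a and Spag6l, a pair chosen after the values were seen, met in 10.8% and 8.64% of cells, against products of 8.65% and 6.97%. In both libraries, 2 pairs lay outside 0.8 to 1.25, and both met in under 1% of cells: Rsph1 with Lrrc6 and Cfap70 with Mns1. The variance of the number of members per cell was 1.25 and 1.07 times the sum of the members' separate variances. Cells with a Foxj1 UMI held 3.96 ± 1.60 structural members in replicate 1 (SD over 50 cells) and 4.43 ± 1.76 in replicate 2 (123 cells), against 4.31 ± 1.93 (589 cells) and 4.42 ± 1.76 (2054 cells) in those without one. At this depth a missing UMI does not show that Foxj1 is absent from a cell.

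**Figure D5:**
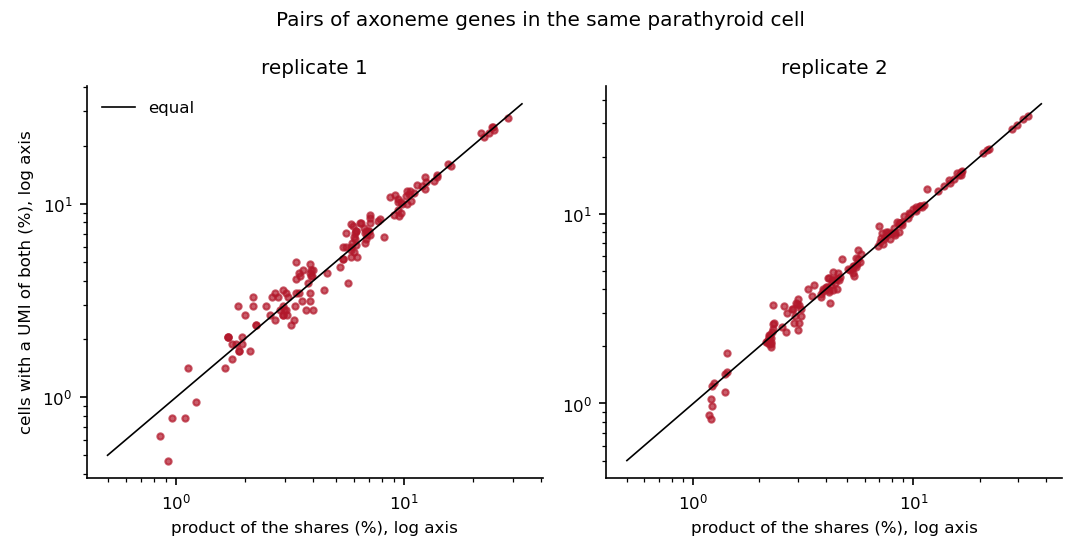
Percent of parathyroid cells with a UMI of both genes of a pair, against the product of both genes' shares, for 136 pairs in each replicate on log axes, with a line at equality. The pairs follow the line, with median ratios of 1.03 and 1.01.

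RNA set free from broken cells can enter any droplet, and Pth made up 0.118% and 0.133% of the UMIs of fibroblast-like cells. At the ratio to Pth seen in parathyroid barcodes, Chga and tdTomato of fibroblast-like cells stood at 0.924 (95% Poisson interval 0.905 to 0.944) and 0.947 (0.894 to 1.00) of that amount, where RNA carried over together with Pth would give 1. The interval of Chga leaves out 1, and the source of these counts was not tested. Dnah9 stood at 0.657 (0.136 to 1.92), Mak at 1.04 (0.215 to 3.04), Dynlrb2 at 1.55 (0.421 to 3.96) and Spag6l at 0 (0 to 0.771), with intervals that hold 1 or lie under it. Rsph9 stood at 12.1 times that amount (10.5 to 13.8), Ccdc39 at 13.0 (10.2 to 16.3) and Cfap69 at 11.6 (8.88 to 15.0), with intervals above 1. Spef2 stood at 32.2 times it in T cell-like cells (19.0 to 50.8). Dynlrb2 stood at 16.9 times it in the same cells (4.61 to 43.3), from 4 UMIs. Across parathyroid cells, the summed level per 1000000 UMIs other than Pth was 740 and 669 in cells with 5 to 10% Pth, 726 and 763 with 10 to 15%, 659 and 728 with 15 to 20% and 677 and 681 above 20%. The 36 barcodes between the Pth limits of 1% and 5% had a summed level of 427 and 480 CPM.

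Markers of multiciliated epithelium were looked for in the same barcodes. Of 9 such markers, 5 had a UMI in parathyroid barcodes of either library, and Sntn, Ccdc153, Cdhr3 and Tmem212 had none in 2897 parathyroid cells. The list summed to 37.5 and 30.4 CPM in parathyroid barcodes, most of it Deup1, which is on both lists, against 65.9 and 131 CPM in fibroblast-like cells, most of it Tppp3, and 0 to 40.0 CPM in the other types. None of the 6 markers of secretory airway epithelium reached 1 CPM in parathyroid barcodes. Of the thyroid follicular markers, Tg, thyroglobulin, had 0.264 and 3.27 CPM in parathyroid barcodes, and Nkx2-1 had no UMI there.

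Other genes of the same structures were counted the same way, beside the 38.4% called higher and 19.7% called lower of eligible genes. As with the 35 members, genes of these lists could pass the filter through the parathyroid class alone, and a type without a UMI was found for 6 of 12 dynein, 3 of 10 assembly, 4 of 8 spoke and nexin, 4 of 7 central pair, 9 of 19 doublet and 5 of 26 transport genes that passed. Without the filter, 13 of 24, 7 of 11, 12 of 19, 7 of 12, 27 of 37 and 27 of 28 of these lists were called higher, beside 26.9% of eligible genes. With all barcodes of Pth under 1% as 1 class, 10 of 22 dynein genes were called higher and 4 lower, beside 35.1% and 32.2%. Of 24 other axonemal dynein and docking genes, 12 passed the filter, 8 were called higher and 1, Dnah8, lower, with a median log2 fold change of 2.90 (2.37 with empty types at 3 counts). Dnal4 averaged 35.9 ± 1.96 CPM in parathyroid barcodes and 7.87 ± 0.317 in the other types, and Ccdc114, a docking complex gene, 21.3 ± 1.67 and 1.88 ± 0.622 (SD, n = 2 libraries). Dynlrb1, the relative of Dynlrb2 that also serves cytoplasmic dynein, averaged 101 ± 4.56 and 99.9 ± 4.18 CPM and was not called (adjusted p = 0.261, edgeR).
Of 14 other dynein assembly genes, 12 were found, 10 passed and 6 were called higher, with none called lower, beside 38.4% and 19.7% of eligible genes. The median was 2.06 (1.75 with empty types at 3 counts). Spag1 averaged 27.3 ± 4.12 CPM in parathyroid barcodes and 2.87 ± 0.213 in the other types, Dnaaf4 21.4 ± 0.940 and 1.28 ± 0.777, Cfap298 61.5 ± 5.17 and 17.1 ± 4.91, and Pih1d2 12.0 ± 0.412 and 0.692 ± 0.0183. Ruvbl1, an ATPase of many complexes, was not called (25.4 ± 2.70 and 23.3 ± 3.83 CPM).
Of 19 other radial spoke and nexin-dynein genes, 8 passed, 6 were called higher and none lower, beside the same 38.4% and 19.7%, with a median of 3.22 (2.31). Nme5, a spoke gene, averaged 36.0 ± 0.418 CPM in parathyroid barcodes and 1.10 ± 0.557 in the other types. Gas8, Iqcg and Drc3, of the nexin-dynein regulatory complex, averaged 22.7 ± 1.48, 9.69 ± 2.32 and 11.1 ± 1.28 CPM in parathyroid barcodes, against 6.31 ± 1.68, 0.520 ± 0.151 and 1.47 ± 0.140 in the other types. Maats1 did not pass the filter, with 6.01 ± 0.509 CPM in parathyroid barcodes and 0.0899 ± 0.127 in the other types.
Of 12 other central pair genes, 7 passed, 5 were called higher and 1 lower, with a median of 4.79 (2.76). Cfap47, Cfap54 and Ropn1l averaged 22.0 ± 2.65, 24.2 ± 3.76 and 17.4 ± 0.597 CPM in parathyroid barcodes, against 0.446 ± 0.174, 1.62 ± 0.678 and 1.69 ± 0.253 in the other types. Cfap74 was not called (7.06 ± 0.471 CPM in parathyroid barcodes and 7.09 ± 0.360 in the other types).
Of 39 genes of the doublet interior and other axoneme parts, 38 were found, 19 passed, 16 were called higher and 1, Tppp3, lower, with a median of 3.78 (2.38). Cetn2 averaged 165 ± 2.04 CPM in parathyroid barcodes and 47.1 ± 1.90 in the other types, Lrriq1 59.7 ± 2.46 and 0.898 ± 0.621, and Ak9 23.9 ± 1.96 and 0.784 ± 0.689. Dcdc2a did not pass (6.23 ± 0.759 and 0.555 ± 0.165).
Intraflagellar transport, which builds primary and motile cilia alike, had 28 genes, of which 26 passed. Of these, 23 were called higher and none lower, beside the same 38.4% and 19.7%, with a median of 2.29 (1.90). Dync2h1, the heavy chain of the retrograde motor, averaged 127 ± 4.91 CPM in parathyroid barcodes and 24.8 ± 1.49 in the other types, Wdr35 59.8 ± 1.81 and 6.23 ± 1.42, Dync2li1 59.6 ± 3.69 and 9.84 ± 0.608, and Ift22 52.6 ± 2.70 and 8.59 ± 1.04. Kif3b was not called (24.3 ± 0.456 and 21.6 ± 0.0751 CPM, adjusted p = 0.0947, edgeR).

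Between the libraries the members' parathyroid levels were close for most. The ratio of replicate 1 to replicate 2 had a median of 1.07, and its exact 95% interval, which covers counting error only, left out 1 for 17 of the 35 members, 11 higher and 6 lower in replicate 1. Rfx2 had a ratio of 1.84 (1.68 to 2.02), Foxj1 1.37 (1.17 to 1.61), Spag6l 1.31 (1.22 to 1.39) and Rsph4a 1.25 (1.18 to 1.33). Spef2 was lower in replicate 1, at 0.694 (0.652 to 0.739), as was Dnaaf3, at 0.755 (0.683 to 0.833). Each replicate is 1 library, and the ages of the mice, their number and the chimerism differ between them, so that these cannot be told apart.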

How the data were processed

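Droplet libraries were made from pooled glands of 2 sets of mice, and whole-number UMI counts per gene and barcode were deposited by the authors. The submitters' processing notes name Cell Ranger 7.0.0 and build mm10. Barcodes with fewer than 500 genes, over 15% mitochondrial or over 5% haemoglobin counts, or called as doublets by Scrublet (23 in replicate 1 and 6 in replicate 2) were left out, which kept 1240 of 1406 and 3313 of 3518. Clustering used scanpy 1.11.5 (2000 variable genes, without the 35 genes and the related lists, 30 components, 15 neighbours, resolution 1), and clusters were named by at least 3 markers. Free RNA was not removed. The 35 genes, the markers and the related lists were chosen with earlier results of these data known, so that counts over them are descriptions.

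Raw counts were summed per class and library (12 sums) and tested with edgeR 4.0.16 in R 4.3.3 (TMM scaling, filterByExpr, quasi-likelihood test, library as a block), with Benjamini-Hochberg adjustment over all 13306 genes tested. Replicate numbers pair the sums because both come from the same library. The 11720 eligible genes are those tested that were neither used for clustering nor class markers. Each replicate is a pool of mice, and class and library were both terms of the model. The p-values thus rest on how class differences vary between 2 pools, and not on the spread between types or between mice. Alternatives were RLE scaling, DESeq2 1.42.0, no filter, no block, 1 pooled class, other Pth limits and resolutions, thinning and leaving out a replicate or a type. Poisson and Wilson intervals cover counting error only. Standard errors were taken from the fold change and the F statistic. Every member is named. From each related list, up to 4 called genes with the smallest p and the uncalled or untested gene with the highest parathyroid level are named, and of the transcription factors those of at least 1 CPM in any class and 6 set genes. The values of 2 genes that this rule names are not reported here.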

Additional observations from a re-analysis of the deposited data

Results flagged for a closer look

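Several members were found in small barcode groups outside the comparison, at levels whose lower exact 95% Poisson bound lay above the highest of the 5 compared types. These groups have too few cells for a test between libraries, and no explanation was tested.

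In 48 ILC2-like barcodes, Mns1 had 68.6 CPM, from 32 UMIs in 18 cells, and Spag6l had 12.9 CPM. Cfap43, which was low in parathyroid barcodes, had 157 CPM in 37 neutrophil-like barcodes, from 38 UMIs in 19 cells. Mak had 9.41 CPM in the NK cell-like barcodes, from 4 UMIs in 1 cell, and Cfap69 had 25.1 CPM in the pericyte or smooth muscle-like barcodes, from 9 UMIs.

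An unnamed cluster of 14 barcodes, whose leading gene was Erbb4, held 7 such members. Dnah9 had 178 CPM there, Rfx3 238, Cfap69 104, Efcab1 89.1, and Ccdc39, Mak and Foxj1 59.4 each, from 4 to 16 UMIs per gene. The sum over the 32 structural members was 807 CPM in replicate 1 and 831 in replicate 2 of this cluster. Pth made up 0.764% and 0.571% of its UMIs. That is more than in the named types with Pth under 1%, from 0.128% in fibroblast-like to 0.237% in neutrophil-like barcodes over both libraries. The median barcode of the cluster held 4641.5 UMIs.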

How the results depend on the processing

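Of the members' results under the alternatives, 283 kept their direction and their side of the threshold. Rfx3 turned to -0.031 with RLE and -0.036 with DESeq2. Without the filter 29 of 35 members were called higher, against 19 of 21 with it. Eligible genes called lower numbered 3757 with DESeq2 (4086 higher), against 2307 (4498 higher), of 11720 in both. With all barcodes of Pth under 1% as 1 class, 4944 were called lower, and 10326 of 15348 eligible genes were called in all, against 6805 of 11720. The shares in that setting were 35.1% higher and 32.2% lower, against 38.4% and 19.7%. The mean number of structural members per parathyroid cell was 4.35, 2.57 when thinned to 5000 UMIs, 9.49 without thinning, and 4.28 to 4.42 when either replicate was left out. Leaving out a replicate gave 30 to 32 members with a higher CPM, against 32, without a test, and the share of all genes that did so was not counted. Without the replicate block 19 of 21 members tested were called higher and 1 lower. Of 11720 eligible genes, 4177 (35.6%) were called higher in that setting and 2111 lower. Among related genes, the pooled class turned Myb to -0.62, Cfap74 to -0.079 and E2f4 to 0.15. E2f4 was 0.087 without the filter, 0.13 at resolution 2 and 0.15 without T cell-like cells. When thinned it was 0.68, but T cell-like cells, with 13 left in replicate 2, were not among the types compared there. In the thinned setting 14 of 16 members tested were called higher and 1 lower, beside 35.7% and 23.2% of 9858 eligible genes. Rfx7 was no longer called with RLE or DESeq2. Leaving out a type, chosen after seeing the data, gave 16 to 21 members called higher, where the number tested also changed (16 of 18 without fibroblast-like and 21 of 23 without dendritic cell-like cells). In these cases the cause was not tested. The 36 to 51 cells of the smallest type limit what can be said of genes near 1 UMI.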
